A study of Bos taurus with 50 samples.

Results

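Endometrial biopsies in a luteal-like state at week 9 after calving were compared with luteal-like biopsies at week 5, to ask what differs with time after calving when the ovary is in a similar state. The libraries were chosen by the mRNA abundance of OXTR, the receptor for oxytocin, calculated as the reads of ENSBTAG00000019772 per 1000000 reads assigned to genes in the library (CPM). Libraries of the named groups with OXTR under 60 CPM were kept, which gave 24 of the 50 libraries. Of these, 9 were biopsies at week 5 and 15 were biopsies at week 9.

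The animals were Holstein and Jersey admixture dairy cows in their first lactation, and total RNA was extracted from uterine biopsies taken at both weeks. CycW5 cows had a corpus luteum and circulating progesterone (P4) at week 5, and all 9 libraries kept from that week came from them. NoCycW5 cows had no corpus luteum at week 5 and P4 under the detection limit up to that week. The 15 libraries kept from week 9 comprised 7 from CycW5 cows and 8 from NoCycW5 cows. Between the biopsies all cows were given a P4 insert, gonadotropin-releasing hormone and prostaglandin F2α, so that the week 9 biopsy fell on a fixed day of a synchronised cycle. The week 5 biopsies fell on whichever day of a spontaneous cycle the cow had reached. Time after calving, the day of the cycle, the synchronisation treatment and the order in which the libraries were numbered cannot be told apart in this comparison. A further group, cows that were cycling but had no P4 at week 5 (here CycNoP4), was outside the rule. The libraries were not linked to cows, although the study biopsied the same cows at both weeks and fitted cow as a random effect. The tests here treat the libraries as independent, P values measure the spread between them, and the effect of repeated sampling of a cow was not tested.

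P4 from the corpus luteum acts on the endometrium through its nuclear receptor, and the set of genes it controls changes as the luteal phase goes on. OXTR is held down while P4 acts and returns at the end of the luteal phase, when oxytocin drives the pulses of prostaglandin F2α that end the life of the corpus luteum. After calving the uterus also involutes, clears bacteria and rebuilds its epithelium and stroma, so the luteal tissue of a cow can differ between an early and a later cycle.

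OXTR chose the libraries, and its values are described without a test. At week 5 the kept libraries 12, 13, 45, 52, 54, 59, 66, 67 and 70 had 14.6, 43.1, 51.8, 44.2, 48.5, 24.8, 25.1, 5.21 and 44.1 CPM of OXTR. At week 9 the kept libraries ranged from 2.71 to 39.7 CPM (median 5.69), whereas the week 5 median was 43.1 CPM. Week 5 libraries 12, 59, 66 and 67 lay within the week 9 range, whose top was set by library 75 alone, since the other week 9 libraries had at most 11.3 CPM. A state that was alike by the threshold was therefore not alike in the level of OXTR. Just inside the threshold were library 45 at week 5 (51.8 CPM) and library 75 at week 9 (39.7 CPM). Just outside it at week 9 were library 83 of CycW5 (67.0 CPM) and library 80 of NoCycW5 (84.5 CPM). At week 5 the only CycW5 library outside was library 57, far above the threshold with 162 CPM. The 12 NoCycW5 libraries at week 5, which the rule did not take up, had 75.7 to 244 CPM. The 3 week 9 libraries of CycNoP4 cows had 1.58, 3.47 and 10.5 CPM.

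**Figure D1:**
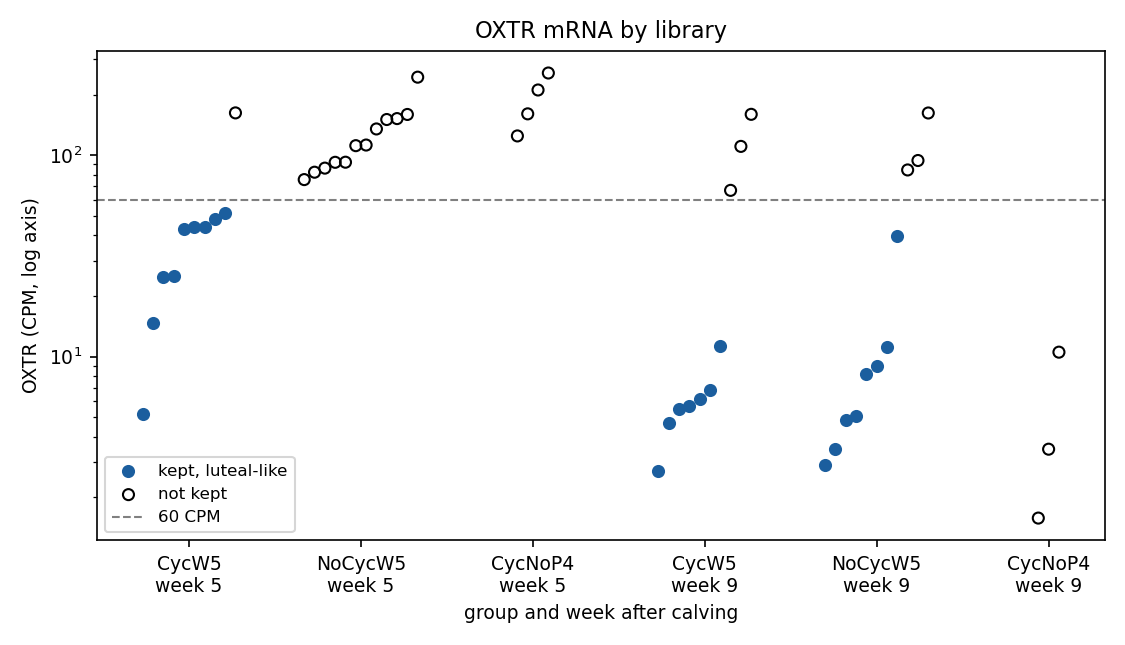
OXTR mRNA abundance by library on a log axis, by cyclicity group and week, with the libraries kept in filled symbols and the 60 CPM threshold as a dashed line. The kept week 5 libraries lie mostly between 14.6 and 51.8 CPM, and the kept week 9 libraries mostly under 11.3 CPM; the CycNoP4 libraries lie outside the rule whatever their level.

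The 24 libraries held between 21592867 and 32813237 reads assigned to genes. Library 89, a CycW5 biopsy at week 9, stood apart: its median correlation with the other kept libraries was 0.859, whereas that of the others was between 0.931 and 0.971. The first principal component of log2 CPM over all 24 libraries held 29.7% of the variance, to which library 89 contributed with a value of -105. Among the other libraries it did not separate the weeks fully. Week 5 libraries 12, 45, 52, 54, 59 and 67 had values between -54.5 and -30.8, while libraries 13, 66 and 70 had 10.7, 3.21 and 22.95 and lay in the range of the week 9 libraries, which had -23.7 to 35.8 without library 89. The week 5 libraries near the week 9 libraries were not those of lowest OXTR: library 67, the lowest at 5.21 CPM, lay with the distant ones.

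**Figure D2:**
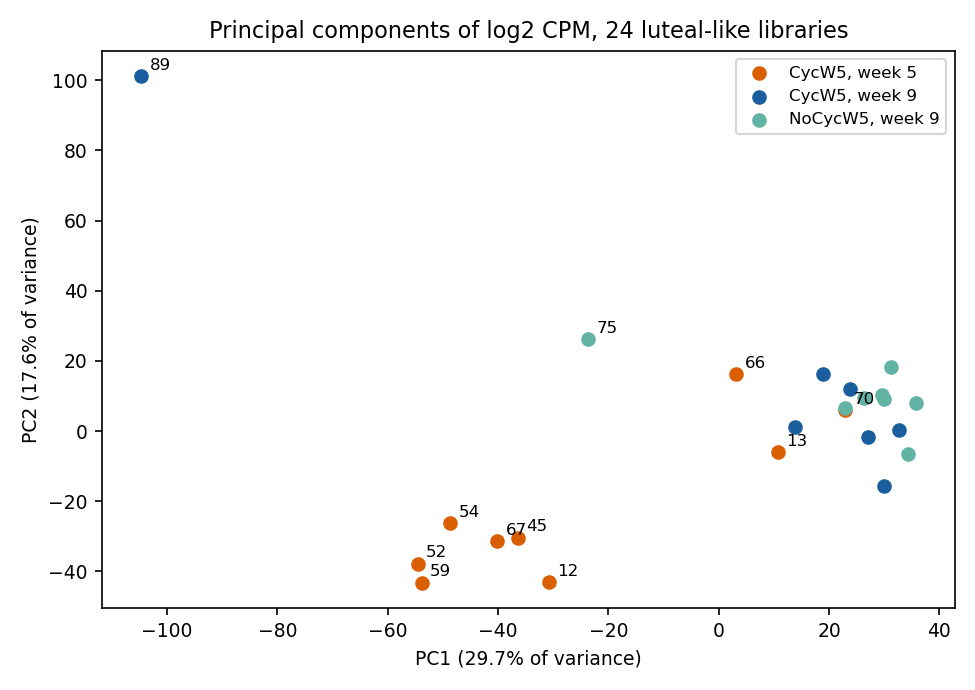
First and second principal components (PC1, PC2) of log2 CPM over the 24 luteal-like libraries, coloured by group and week, with week 5 libraries and libraries 75 and 89 numbered. Libraries 13, 66 and 70 of week 5 lie among the week 9 libraries, the other 6 week 5 libraries lie to the left, and library 89 lies far from all others at -105 and 101.

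Endometrium of luteal-like libraries differed between the weeks in 2034 of the 15134 genes tested (13.4%) at a Benjamini-Hochberg (BH) P of 0.05 or less by edgeR's quasi-likelihood test. Of these, 860 were higher at week 9 (5.68%) and 1174 were lower (7.76%). Abundance changed at least 2-fold in 340 of them, 102 higher and 238 lower, so the large changes were mostly toward lower abundance. Only KIAA0513 was separated without overlap between the weeks (1 of 15134 genes, 0.00661%). The count moved with single libraries: it was 3794 without library 89, and 1287, 1232, 1256 and 1265 without week 5 libraries 12, 52, 54 and 59. It rose to 2635, 2978 and 3032 without week 5 libraries 13, 66 and 70, which lay among the week 9 libraries. Over all genes tested the median log2 fold change was 0.03. The named genes below come from the genes for which the study's tables give a symbol, of which 485 of 2157 were called (22.5%). That set is not representative, since the study lists symbols only for genes it called in its own comparisons, some of which used these libraries.

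The 12 named genes that were lower with the lowest BH P had their highest values in week 5 libraries, and which of these was highest differed by gene. GRIN1 encodes the subunit that all NMDA-type glutamate receptors contain. In week 5 libraries 12, 13, 45, 52, 54, 59, 66, 67 and 70 it had 80.8, 19.3, 53.3, 26.98, 46.7, 57.96, 13.6, 79.5 and 10.6 CPM, and at week 9 it had 4.91 to 16.6 CPM (median 9.19). Libraries 66 and 70 lay within the week 9 range and the other 7 lay above it. The log2 fold change was -2.20 ± 0.29 (± SE here and below; BH P = 0.000178). CAMK2B, a subunit of calcium/calmodulin-dependent protein kinase, had in the same order 129, 34.9, 64.3, 20.5, 73.7, 97.5, 13.5, 177 and 17.01 CPM, against 3.26 to 30.03 CPM (median 10.3) at week 9. Library 13 was just above the highest week 9 library, and libraries 52, 66 and 70 lay within the range. Its log2 fold change was -2.46 ± 0.39 (BH P = 0.000536).

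PLA2G3, a secreted phospholipase A2, had 19.8, 2.44, 13.01, 4.31, 10.7, 7.51, 0.512, 16.6 and 1.56 CPM in week 5 libraries 12 to 70 and 0.415 to 2.47 CPM (median 1.04) at week 9, a log2 fold change of -2.95 ± 0.42 (BH P = 0.000243). Libraries 13, 66 and 70 were inside the week 9 range. ADORA1, the adenosine A1 receptor, had 13.8, 2.58, 9.85, 3.37, 9.15, 10.9, 1.13, 18.4 and 1.28 CPM against 0.214 to 1.95 CPM (median 0.778), a log2 fold change of -3.30 ± 0.43 (BH P = 0.000166). Here libraries 66 and 70 were inside the range. GJB1, a connexin of gap junctions, had 24.3, 7.84, 13.97, 12.4, 23.7, 33.3, 6.96, 30.4 and 1.92 CPM against 0.464 to 7.62 CPM (median 1.43), and fell by 3.08 on the log2 scale (BH P = 0.000369). Its highest week 9 library overlapped libraries 66 and 70.

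The other lower genes in this set were the phosphatase PPM1J (log2 fold change -1.60 ± 0.20, BH P = 0.000117), the fatty acid elongase ELOVL7 (-2.16 ± 0.30, BH P = 0.000178), BDH1, a mitochondrial enzyme of ketone body metabolism (-1.96 ± 0.27, BH P = 0.000178), and SEC31A, a coat protein of vesicles that leave the endoplasmic reticulum (-0.83 ± 0.12, BH P = 0.000335). The actin-binding coronin CORO2A (-1.03 ± 0.16), the co-chaperone DNAJB5 (-1.52 ± 0.23) and the mitochondrial dehydrogenase HSD17B10 (-0.84 ± 0.13) completed it, with BH P between 0.000369 and 0.000496. SEC31A was abundant: it had 482, 257, 409, 413, 501, 445, 249, 487 and 215 CPM in week 5 libraries 12 to 70 and 191 to 269 CPM (median 205) at week 9. In all 12 genes all 15 week 9 libraries lay below the week 5 median, which is a description, since the genes were chosen by their P in these libraries.

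Week 5 libraries contributed unequally to these genes. Library 66 lay within or below the week 9 range in 12 of the 12, library 70 in 9 and library 13 in 6, whereas library 52 did so in 1 and libraries 12, 45, 54, 59 and 67 in 0. The summed abundance of the epithelial markers EPCAM, KRT8 and MUC1 moved with this split, but of the markers EPCAM alone did. EPCAM had 535, 573 and 667 CPM in libraries 13, 66 and 70, and 162 to 311 CPM in the other week 5 libraries. KRT8 did not follow the split: in libraries 13, 66 and 70 it lay within the range of the other week 5 libraries. MUC1 did not follow it either, with 40.6, 28.4 and 51.7 CPM against 28.4 to 69.8 CPM. The sum was 552, 324, 366, 551, 339 and 531 CPM in libraries 12, 45, 52, 54, 59 and 67, and 760, 764 and 907 CPM in libraries 13, 66 and 70. At week 9 it was 563 to 907 CPM without library 89 and 300.1 CPM in library 89. The difference in means between the weeks was 155.7 CPM, higher at week 9 (week 5, 566 ± 208 CPM, SD, n = 9; week 9, 722 ± 153 CPM, n = 15), with P = 0.0511 in a two-sided exact permutation test, also after BH adjustment over the 2 marker sums. The part of epithelial content in the results was not tested, and in a biopsy fewer cells of a type and less mRNA per cell cannot be told apart.

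**Figure D3:**
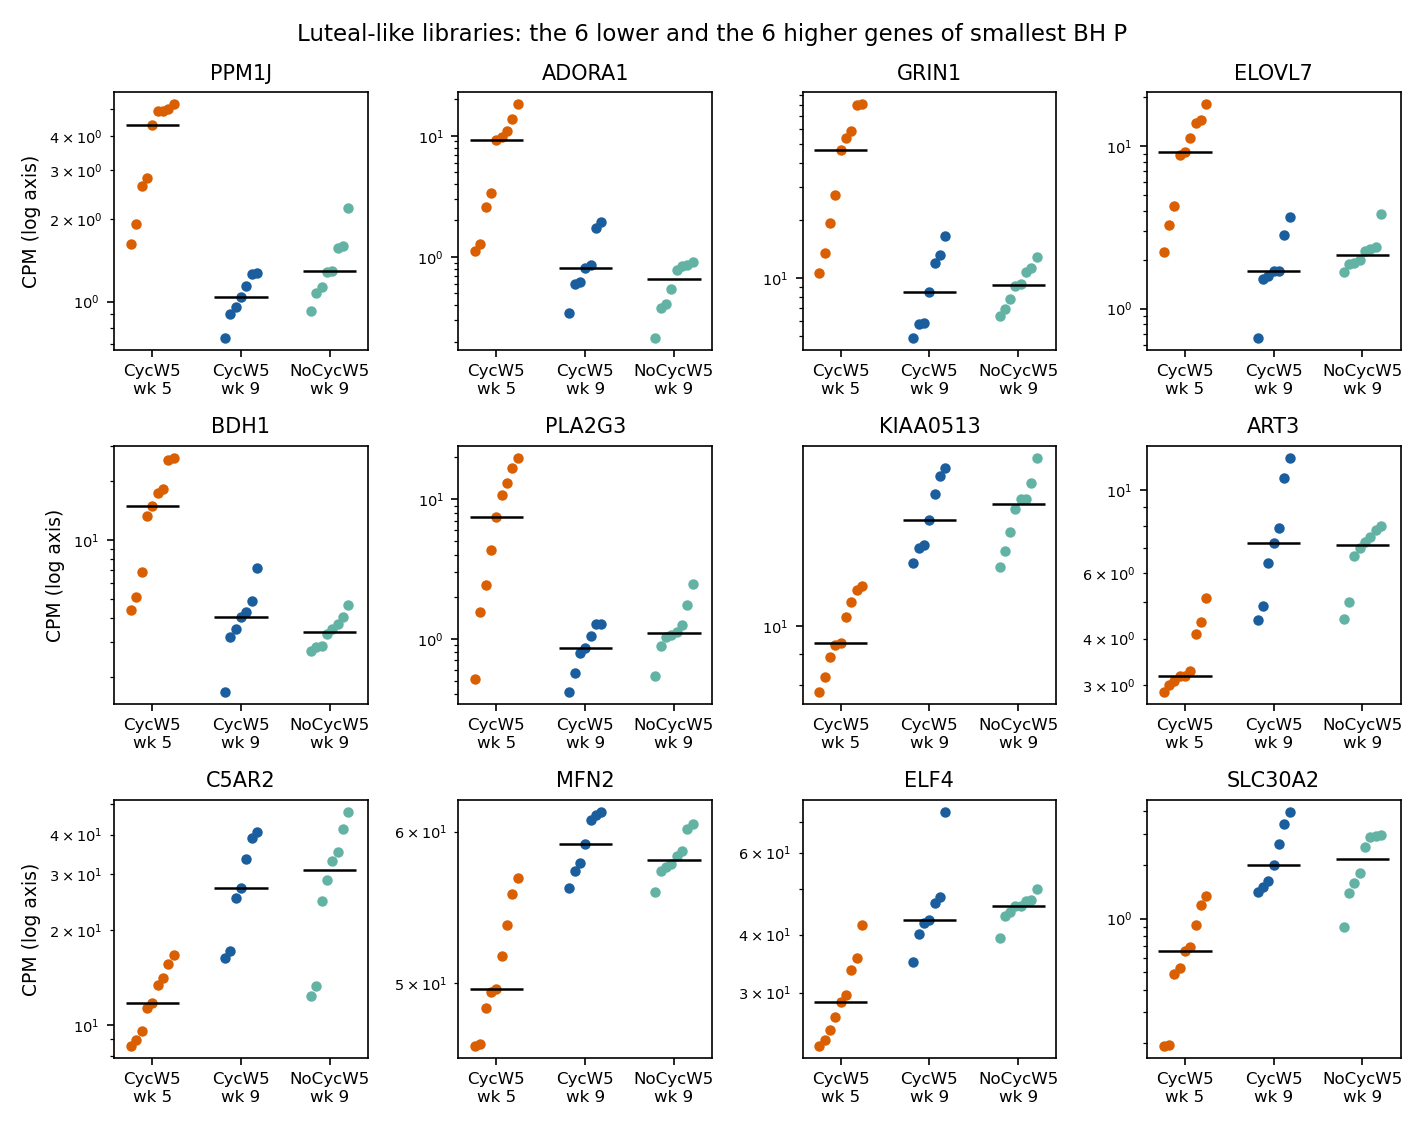
Abundance (CPM, log axes) in each luteal-like library of the 6 lower and the 6 higher named genes of lowest BH P, by group and week, with group medians as lines. For the lower genes the week 5 points spread down into the range of week 9, as for PLA2G3, with week 5 libraries from 0.512 to 19.8 CPM; for KIAA0513 the weeks do not overlap.

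The 12 genes that were higher with the smallest BH P changed by smaller steps. KIAA0513 had 8.25, 10.3, 9.39, 9.33, 8.91, 7.80, 11.5, 11.6 and 10.96 CPM in week 5 libraries 12 to 70 and 12.5 to 18.9 CPM (median 15.5) at week 9, so that the weeks did not overlap. Its log2 fold change was 0.66 ± 0.09 (BH P = 0.000242). C5AR2, a receptor for a complement fragment, had 13.3, 14.1, 8.58, 8.95, 11.8, 11.3, 16.7, 9.59 and 15.6 CPM, against 12.3 to 47.2 CPM (median 28.6) at week 9. The weeks overlapped in libraries 12, 13, 66 and 70, and the log2 fold change was 1.25 ± 0.22 (BH P = 0.00111). MFN2, a GTPase that fuses mitochondria, differed little but evenly: it had 46.3 to 56.7 CPM (median 49.6) at week 5 and 55.8 to 61.4 CPM (median 58.2) at week 9, a log2 fold change of 0.21 ± 0.04 (BH P = 0.00164).

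PDE3B, a cyclic nucleotide phosphodiesterase, had 18.9, 23.1, 19.8, 11.5, 19.8, 9.39, 25.9, 9.14 and 37.1 CPM in week 5 libraries 12 to 70 and 27.6 to 99.2 CPM (median 41.9) at week 9, with only library 70 inside the week 9 range. Its log2 fold change was 1.32 ± 0.25 (BH P = 0.00186). ARHGDIB had 179, 376, 180.1, 160.4, 139.7, 167.5, 259, 221 and 375 CPM against 226 to 539 CPM (median 446), a log2 fold change of 0.92 ± 0.18 (BH P = 0.00225); libraries 13, 66 and 70 were inside the range. STC2, a secreted glycoprotein, was scarce, with 0.154 to 0.990 CPM (median 0.270) at week 5 and 0.445 to 3.90 CPM (median 1.64) at week 9, and changed by 1.97 ± 0.37 on the log2 scale (BH P = 0.0021). The zinc transporter SLC30A2 was also scarce and changed by 1.69 ± 0.31 (BH P = 0.00184). The remaining genes of this set were ART3 (1.01 ± 0.17), the ETS-family transcription factor ELF4 (0.65 ± 0.12), MREG (0.87 ± 0.17), ZNF335 (0.37 ± 0.07) and OCIAD2 (0.64 ± 0.13), with BH P between 0.000863 and 0.00324. In all 12, chosen in the same way, all 15 week 9 libraries lay above the week 5 median. Of these 12 calls, those of ELF4 and SLC30A2 alone remained with log2 OXTR as a covariate. Libraries 66, 70 and 13 lay within or above the week 9 range in 10, 9 and 6 of these genes, library 12 in 2, libraries 59 and 67 in 1, and libraries 45, 52 and 54 in 0.

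Among 11 tested genes known to respond to P4 in ruminant endometrium, 3 were called higher and 2 lower, against 13.4% called over all genes and 22.5% over genes with a symbol. The median log2 fold change of the list was 0.76. Most of the list genes called here and below lost their call with log2 OXTR as a covariate. Most also lost it without an OXTR threshold, and with OXTR of 5 CPM or more. The counts are given with the dependence on processing. SLC5A1, a glucose and sodium cotransporter, had 13.5, 37.4, 6.66, 5.47, 8.18, 3.01, 29.8, 10.1 and 72.2 CPM in week 5 libraries 12 to 70 and 5.23 to 122 CPM (median 59.3) at week 9. The high week 5 libraries were 13, 66 and 70, and the log2 fold change was 1.57 ± 0.48 (BH P = 0.0332). DKK1, a secreted Wnt inhibitor, had 4.07 to 32.8 CPM (median 18.02) at week 5 and 5.42 to 153 CPM (median 41.96) at week 9, a log2 fold change of 1.37 ± 0.39 (BH P = 0.0225). The lipoprotein lipase LPL was lower (-1.51 ± 0.35, BH P = 0.00797), as was the ectoenzyme ENPP3 (-0.996 ± 0.29, BH P = 0.0263). HPGD, which inactivates prostaglandins, was higher by 0.73 ± 0.24 (BH P = 0.0459). The calls for SLC5A1, ENPP3 and HPGD were lost when any of 7, 4 and 15 of the 24 libraries was left out. For SLC5A1 these were libraries 12, 45, 52, 54, 59, 67 and 100, for ENPP3 libraries 12, 45, 54 and 67, and for HPGD libraries 12, 45, 52, 54, 59, 74, 82, 92, 93, 95, 96, 97, 98, 100 and 101. The other 6 members were not called, with log2 fold changes from 0.23 (MSTN) to 1.79 (MEP1B). The week 5 libraries were split for most of them. MEP1B had 462, 294 and 398 CPM in libraries 13, 66 and 70 and 1.86 to 23.6 CPM in the others (NoCycW5 week 5 median 1.44 CPM). IGFBP1 had 175, 77.8 and 205 CPM against 0.0386 to 7.67 CPM, and PENK 3207, 2269.5 and 2938 CPM against 39.3 to 881 CPM. PTGS2 and MSTN were also highest in libraries 13, 66 and 70, whereas DGAT2 was not.

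Among receptors for steroids, ESR1, the oestrogen receptor α, had 104, 67.03, 145, 117, 110.2, 79.3, 62.04, 126 and 78.7 CPM in week 5 libraries 12 to 70 and 28.8 to 87.1 CPM (median 60.4) at week 9. All 15 week 9 libraries lay below the week 5 median and 4 of the 9 week 5 libraries lay within the week 9 range. The log2 fold change was -0.68 ± 0.15 (BH P = 0.00554), and it stayed between -0.75 to -0.60 with any 1 library left out. ESR2 was not called (-0.16). No identifier was paired with PGR, the P4 receptor, and it is not reported here.

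Prostaglandin pathway genes were called in 3 of 8 cases, 1 higher (HPGD) and 2 lower, against 13.4% of all genes and 22.5% of genes with a symbol. ACSL4, an acyl-CoA synthetase that favours arachidonic acid, had 555, 115, 441, 157, 279, 137, 79.9, 519.9 and 125 CPM in week 5 libraries 12 to 70 and 58.5 to 152 CPM (median 107) at week 9. Libraries 13, 59, 66 and 70 lay within the week 9 range, and the log2 fold change was -1.29 ± 0.27 (BH P = 0.00455). PTGFR, the receptor of prostaglandin F2α, was scarce, with 0.205 to 9.75 CPM (median 0.560) at week 5 and 0 to 1.497 CPM (median 0.146) at week 9. Its high week 5 libraries were 52 (9.75 CPM) and 59 (5.25 CPM), and the call (-2.85 ± 0.80, BH P = 0.0207) was lost without either. PTGS2, the inducible cyclooxygenase, was not called (0.49), nor were PTGES (0.62), PLA2G4A (0.63), PLA2G10 (1.29) and ACSL3 (-0.41).

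In lipid metabolism 3 of 10 genes were called, against 13.4% of all genes and 22.5% of genes with a symbol. All were lower: ELOVL7, LPL and ACSL4, already described. DGAT2, ACACA, PLIN2, FABP5, ACADVL, ELOVL6 and ACSL3 were not called, and their log2 fold changes were between -0.42 (FABP5) and 0.76 (DGAT2). None of 16 genes of cholesterol synthesis and uptake was called. Of them 13 had a positive log2 fold change, where 7897 of all 15134 genes tested had a higher median CPM at week 9. The list median was 0.20, against 0.03 over all genes. The largest was CYP51A1, a sterol demethylase, with 0.73 ± 0.25 (BH P = 0.0528), and next IDI1 (0.56 ± 0.20, BH P = 0.0692), both by edgeR. CYP51A1 passed the threshold when any of libraries 12, 70, 75, 89, 96, 97 and 101 was left out, and IDI1 without library 12 or 89.

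Genes of epithelial junctions were called in 3 of 17 cases, a share between the 13.4% of all genes and the 22.5% of genes with a symbol. CLDN10, a claudin of tight junctions, had 50.01, 16.3, 26.7, 41.3, 34.6, 44.8, 6.55, 60.4 and 7.28 CPM in week 5 libraries 12 to 70 and 3.15 to 17.2 CPM (median 8.74) at week 9, with libraries 13, 66 and 70 inside the week 9 range and the other 6 above it. It fell by 1.82 on the log2 scale (SE 0.34, BH P = 0.00186). CLDN1 was lower by the same contrast (-0.72 ± 0.16, BH P = 0.00697) and NECTIN2, an adhesion protein, was higher (0.32 ± 0.08, BH P = 0.0107). The other 14 junction genes, among them CLDN3, CLDN4, CLDN7, CLDN8 and OCLN, were not called. Of the 17, 13 had a positive log2 fold change, where 7897 of all 15134 genes tested had a higher median CPM at week 9. FOXA3, a forkhead transcription factor, was the only 1 called of 9 epithelial transcription factors (-0.79 ± 0.19, BH P = 0.00943), against the same shares of all genes and of genes with a symbol.

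Of 5 genes for matrix crosslinking and proteolysis 3 were called higher and 1 lower, against 13.4% of all genes and 22.5% of genes with a symbol. TIMP2, an inhibitor of metalloproteinases, had 572, 1302, 344, 265, 369.7, 301, 1289.9, 624 and 1709 CPM in week 5 libraries 12 to 70 and 731 to 2096 CPM (median 1691) at week 9. Libraries 13, 66 and 70 lay within the week 9 range and the others below it, and the log2 fold change was 1.11 ± 0.28 (BH P = 0.0126). PLAT, the tissue plasminogen activator, was higher (0.74 ± 0.18, BH P = 0.00888). MMP9, a gelatinase, was called at 4.84 ± 1.59 (BH P = 0.0441), although its median was lower at week 9 (0.312 CPM) than at week 5 (0.546 CPM). The fold rested on library 89, with 279.6 CPM, and library 75, with 18.1 CPM. Without library 89 it was 1.44 and not called, and the call was also lost without any week 5 library other than 70. P4HA1 (-0.37 ± 0.12, BH P = 0.0441) lost its call without any of 19 libraries, the exceptions being libraries 13, 66, 70, 75 and 89. None of 11 collagen and matrix genes was called, with LAMA2 (0.70 ± 0.24, BH P = 0.0505) and FN1 (-0.66 ± 0.25, BH P = 0.0797) having the smallest P values. LAMA2 passed the threshold without library 13, 66, 70, 75, 89 or 101, and FN1 without library 66, 70 or 89.

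Among 15 nutrient transporters, 1 was called higher (SLC5A1) and 4 were lower, against 13.4% of all genes and 22.5% of genes with a symbol. They were the copper transporter SLC31A2 (-0.86 ± 0.25, BH P = 0.0233, lost without library 12 or 67), the cationic amino acid transporter SLC7A2 (-0.86 ± 0.26, BH P = 0.0325, lost without library 52, 54, 59 or 67), the mitochondrial carrier SLC25A29 (-0.67 ± 0.13, BH P = 0.00186) and the thiamine transporter SLC19A2 (-0.55). In Wnt signalling, DKK1 was called higher, and SFRP2 (-0.71 ± 0.18, BH P = 0.0114), a secreted modulator, and AXIN2 (-0.59 ± 0.14, BH P = 0.00989), a feedback inhibitor and target of the pathway, were lower of 10 tested, against 13.4% of all genes and 22.5% of genes with a symbol. AXIN2 had 31.4 to 57.5 CPM (median 38.6) at week 5 and 20.7 to 46.3 CPM (median 25.8) at week 9. The other 7 Wnt genes, LEF1, LGR4, WNT4, WNT11, FZD2, FZD5 and RNF43, were not called.

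**Figure D4:**
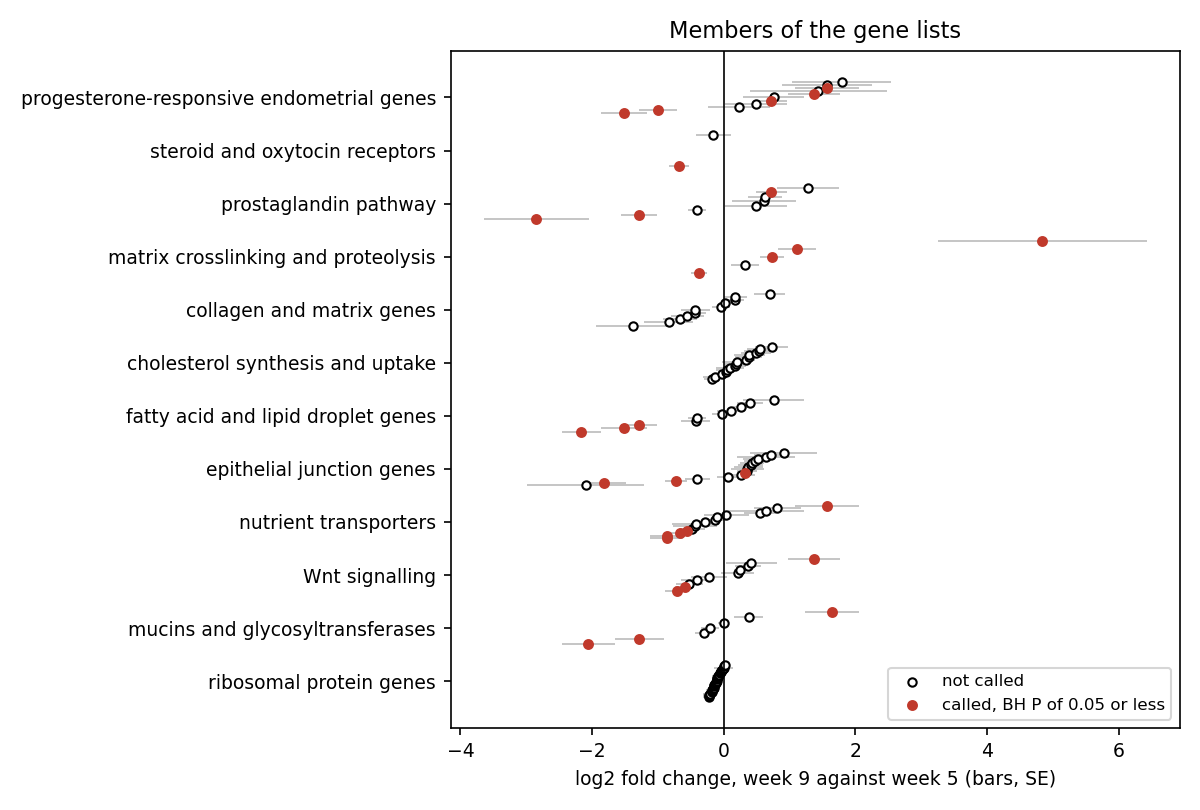
Log2 fold change (week 9 against week 5, bars SE) of the members of 12 gene lists reported here, with genes called at a BH P of 0.05 or less in red. Called genes lie on both sides of 0 in most lists, no cholesterol or collagen gene is called, and the ribosomal protein genes lie close to 0.

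Sugar-chain and mucin genes were called in 3 of 7 cases, against 13.4% of all genes and 22.5% of genes with a symbol. FUT2, a fucosyltransferase, had 14.8, 4.73, 11.6, 13.6, 15.6, 20.4, 1.60, 20.2 and 2.40 CPM in week 5 libraries 12 to 70 and 1.0003 to 8.63 CPM (median 2.26) at week 9. Libraries 13, 66 and 70 lay within the week 9 range, and FUT2 fell by 2.06 on the log2 scale (BH P = 0.00249). The sialyltransferase ST6GAL2 was lower (-1.28 ± 0.37, BH P = 0.0239, lost without library 52 or 54) and the N-acetylglucosaminyltransferase homologue MGAT4C was higher (1.64 ± 0.41, BH P = 0.0115). MUC1, GALNT7, B3GNT5 and ST3GAL6 were not called.

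Immune genes with an identifier were few. None of 4 antimicrobial genes (SLPI, WFDC2, LCN2 and MUC1), 4 cytokines (LIF, CCL2, CCL20 and CCL21) or 3 complement genes (C5, C7 and CFI) was called, against 13.4% of all genes and 22.5% of genes with a symbol. The values of SLPI and CCL2 in library 89 were 201 and 263 CPM, whereas the other week 9 libraries had at most 8.63 and 33.2 CPM. The log2 fold change of SLPI (2.32 ± 1.24, BH P = 0.207) was -0.45 without library 89 and passed the threshold without week 5 library 54, and that of CCL2 (1.26 ± 0.77, BH P = 0.27) was -0.19 without library 89. WFDC2 had -0.81 ± 0.31 (BH P = 0.0805) and passed without library 75 or 89. C5, a complement component, changed by -1.65 ± 0.75 (BH P = 0.135) and passed without library 75, and C7 by -0.54 ± 0.31 (BH P = 0.241) and passed without library 89. CCL21 changed by -1.17 ± 0.95 (BH P = 0.414).

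FAS, a death receptor, was the only 1 called of 5 apoptosis regulators, against 13.4% of all genes and 22.5% of genes with a symbol. It had 24.7 to 61.6 CPM (median 34.9) at week 5, 52.4 to 93.4 CPM (median 61.9) at week 9 and a log2 fold change of 0.72 ± 0.15 (BH P = 0.00463). PDGFRA, a growth factor receptor of stromal cells and the only stromal marker with an identifier, was higher by 0.51 ± 0.15 (BH P = 0.0244, lost without library 12, 52, 54 or 59). It was the only 1 called of 12 growth factor genes, against the same shares. The endothelial cadherin CDH5 was higher by 0.43 ± 0.13 (BH P = 0.0289, lost without library 12, 45, 52 or 54). The sum of the endothelial markers CDH5 and VWF was 225 ± 59.996 CPM (SD, n = 9) at week 5 and 298 ± 72.6 CPM (n = 15) at week 9 (P = 0.017, BH adjusted over the 2 marker sums 0.034, two-sided exact permutation test). The weeks overlapped, with 149 to 312 CPM at week 5 and 210 to 436 CPM at week 9, where library 89 was the highest. Only 2 of the 7 listed endothelial markers had an identifier. Of 4 genes of hypoxia and glycolysis PFKFB3, which controls glycolysis, was higher (0.60 ± 0.19, BH P = 0.037, lost without library 45, 52, 59, 67, 82 or 92) and P4HA1 lower, against the same shares of all genes and of genes with a symbol. EPCAM itself changed by 0.53 ± 0.24 (BH P = 0.134) and passed without library 70 or 89, and MUC1 changed by 0.38 ± 0.22 (BH P = 0.246); neither was called. MCM7, the only cell cycle gene with an identifier, did not pass (0.08 ± 0.10, BH P = 0.599).

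Both mitochondrial genome transcripts with an identifier were lower, CYTB by -0.70 ± 0.15 (BH P = 0.00444) and ND3 by -0.69 ± 0.12 (BH P = 0.00147). The shares called were 13.4% of all genes and 22.5% of genes with a symbol. ND3 had 1778, 1396, 2005, 2123, 2545, 2380.3, 1627, 2289.5 and 1537 CPM in week 5 libraries 12 to 70 and 1009.6 to 2046 CPM (median 1118) at week 9, with library 89 the highest of week 9. Libraries 13, 66 and 70 were the lowest of week 5 for ND3. For CYTB they had 2521, 4015 and 4141 CPM in a week 5 range of 2521 to 5049.6 CPM (median 4015), with library 13 the lowest and the other 2 inside the range of the remaining libraries. Of 29 ribosomal protein identifiers 26 had a negative log2 fold change and the median was -0.11, against a median of 0.03 over all genes. By median CPM, 7235 of the 15134 genes tested were lower at week 9. Whether the ribosomal protein genes moved as a set was not tested.

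The week 9 libraries of CycW5 and NoCycW5 cows were compared to ask whether the earlier cyclicity status was still visible. Of 15285 genes 0 were called by edgeR (0%), with 1047 at an unadjusted P under 0.05. DESeq2 called 17 and limma-voom 0. Against the same 9 week 5 libraries, which both comparisons shared, the 7 CycW5 libraries gave 593 called genes and the 8 NoCycW5 libraries 1521. The difference between the 2 groups is the test with 0 calls. CycW5 at week 9 included library 89. With 7 and 8 libraries, 0 calls do not show that the groups were alike. The study, with cow and microbiota in its model and other libraries, reported genes that differed between these status groups at week 9.

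The 3 week 9 libraries of CycNoP4 cows, which the OXTR rule did not use, gave 0 calls against the week 5 libraries by edgeR (1860 genes at an unadjusted P under 0.05). With 3 libraries, 0 calls do not show that the genes were unchanged. Of the 2034 genes called in the main comparison, 1974 had the same direction here. The week 5 controls are shared with the main comparison, so that number carries no test. In the 3 CycNoP4 libraries GRIN1 had 10.97 to 22.95 CPM (median 11.2), GJB1 2.59 to 8.43 CPM (median 3.24) and TIMP2 853 to 1966 CPM (median 1099.9).

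Levels in the 12 NoCycW5 libraries of week 5 differed from gene to gene. The genes called were chosen with the luteal-like week 5 libraries, so no count of them is set against the acyclic libraries, and the values below are a description. GRIN1 had 1.05 to 2.42 CPM (median 2.04) in acyclic cows, CAMK2B 0.0388 to 2.22 CPM (median 0.341), GJB1 0 to 0.571 CPM (median 0.387) and CLDN1 15.8 to 66.7 CPM (median 42.5). For GRIN1, CAMK2B and GJB1 the order of medians was thus acyclic week 5, week 9, luteal-like week 5. CLDN10 was different, with 25.3 to 129 CPM (median 54.5) in acyclic cows, and so was SFRP2 with 165 to 1006 CPM (median 326), both medians being above that of the luteal-like week 5 libraries. SLC5A1 had 0.465 to 3.09 CPM (median 0.825), HPGD 13.4 to 63.7 CPM (median 27.1) and TIMP2 142 to 373 CPM (median 219.7) in acyclic cows, below the medians of both luteal-like weeks.

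To ask whether the change between weeks was particular to luteal-like libraries, it was set against the change in the 19 CycW5 and NoCycW5 libraries with OXTR of 60 CPM or more, of which 13 were taken at week 5 and 6 at week 9. The changes differed in 2987 of 15744 genes (19%) by edgeR. In 1323 the luteal-like change was the more positive and in 1664 the more negative. The 4 genes with the smallest BH P on the negative side were GRIN1 (difference -5.45 ± 0.60, BH P = 5.22e-08), PLA2G3 (-6.59 ± 0.73, BH P = 5.76e-08), LRRC26 (-5.87 ± 0.66, BH P = 6.24e-08) and PLLP (-5.01 ± 0.55, BH P = 5.22e-08), on the log2 scale. PLLP, a membrane protein of epithelia and myelin, had 7.998 to 97.9 CPM (median 33.9) at week 5 and 6.71 to 29.5 CPM (median 14.1) at week 9 in luteal-like libraries, 0.504 to 2.69 CPM (median 1.08) in acyclic week 5 libraries and 2.67 to 45.9 CPM (median 7.74) in the other week 9 libraries. It fell between the weeks in the luteal-like libraries, whereas the other week 9 libraries had a higher median than the acyclic week 5 libraries. On the positive side were GAS6, a ligand of receptor kinases (1.11 ± 0.19, BH P = 6.64e-05), the kinase MAP2K5 (0.61 ± 0.11, BH P = 0.000144), the Notch ligand JAG1 (1.01 ± 0.19, BH P = 0.000201) and NRIP2 (1.71 ± 0.32, BH P = 0.000218). GAS6 had medians of 113 and 135 CPM in the luteal-like libraries of weeks 5 and 9, and of 157 and 82.2 CPM in acyclic week 5 and other week 9 libraries. The libraries of this contrast differ in cyclicity status at week 5 as well as in OXTR, so the 2 cannot be told apart.

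OXTR within the kept libraries moved with the week, so fits that narrowed, dropped or adjusted for its range were compared. With log2 OXTR as a covariate 206 genes were called, 16 higher and 190 lower, and among libraries with OXTR of at least 5 CPM (9 at week 5 and 10 at week 9) 313. With OXTR under 30 CPM (4 and 14 libraries) 1260 genes were called. Without any OXTR threshold (10 and 21 libraries) 237 were called. Of the 24 genes chosen by smallest BH P, 14 kept their call with OXTR as a covariate. The 10 that lost it were all higher at week 9: KIAA0513, ART3, C5AR2, MFN2, PDE3B, STC2, ARHGDIB, MREG, ZNF335 and OCIAD2. Without an OXTR threshold 14 also kept their call, and C5AR2, MFN2, SLC30A2, ZNF335, PPM1J, ELOVL7, BDH1, PLA2G3, CORO2A and CAMK2B lost it. Under 30 CPM 23 kept it, ZNF335 being the exception, and at 5 CPM or more all 24 did.

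**Figure D5:**
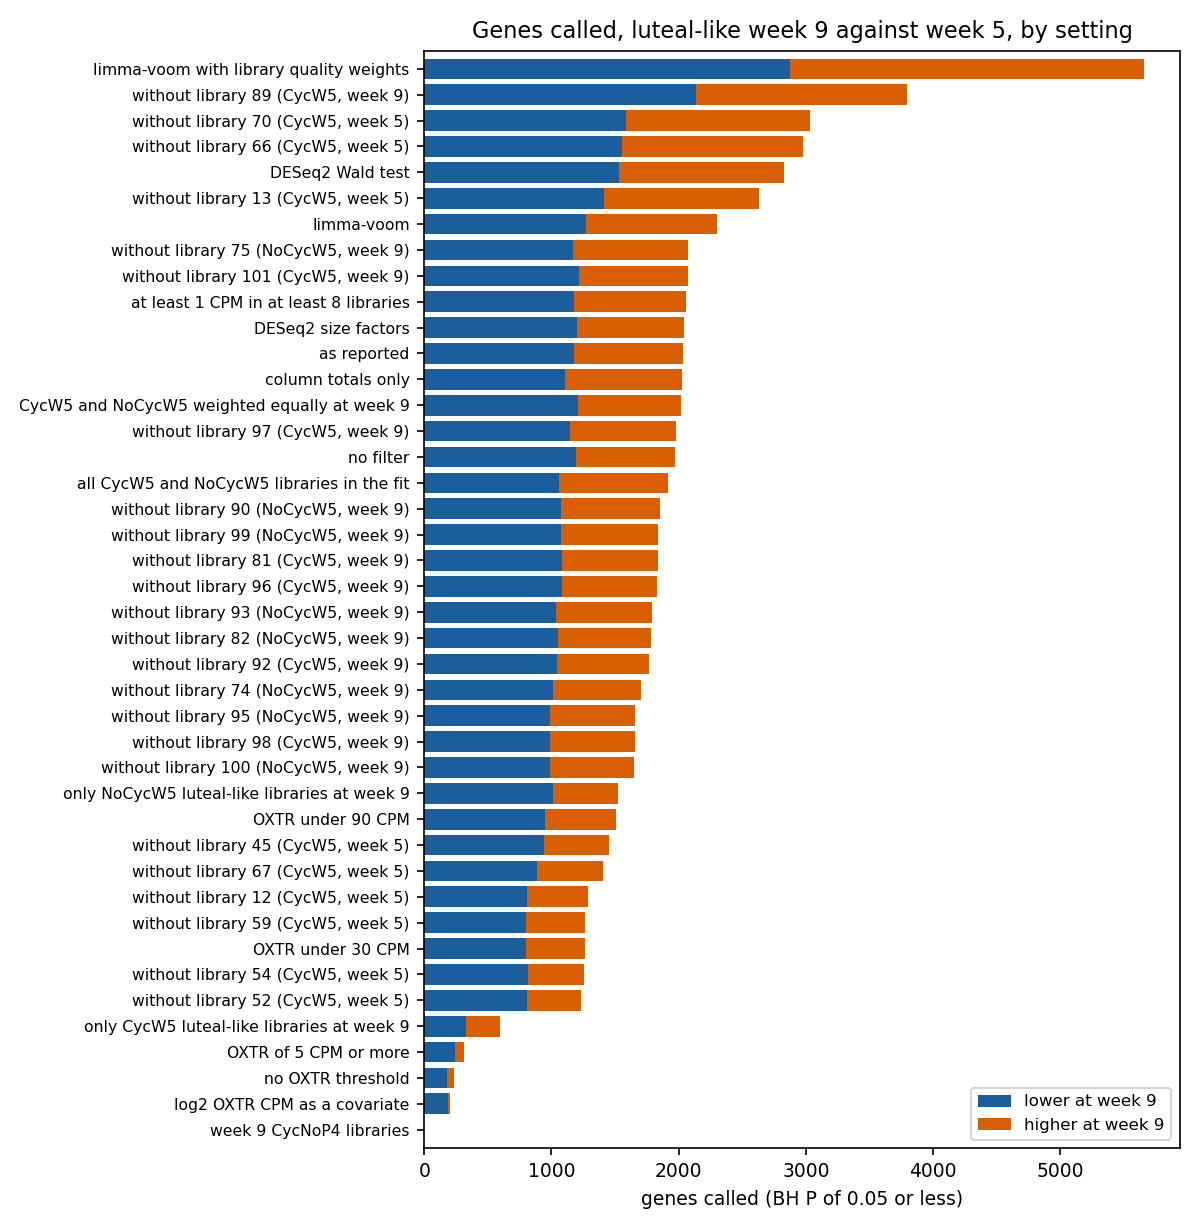
Number of genes called (BH P of 0.05 or less), lower and higher at week 9, under each setting and with each library left out. The reported count is 2034, the count without library 89 is 3794, and library quality weights give 5657, while OXTR as a covariate gives 206.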

How the data were processed

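Polyadenylated RNA of endometrial biopsies was sequenced by the authors as stranded single-end reads, trimmed, aligned with Hisat2 to the bovine build UMD3.1 and counted per Ensembl gene with FeatureCounts. The deposited values are raw counts per gene for 50 libraries, and the submitters' processing notes also name StringTie and edgeR. Versions, and the strand setting of the counting, are not given in the sources used here, so overlapping genes on opposite strands may share reads. The order of library numbers follows the week. Gene symbols came from the study's supplementary tables (2321 identifiers of 18830), and coordinates and sequences were not used here.

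OXTR CPM used the column total. Other CPM used trimmed mean of M values (TMM) scaling over all 50 libraries, and principal components used log2 CPM with a prior count of 2. Genes kept by filterByExpr were tested with edgeR 4.0.16 (quasi-likelihood, TMM) in R 4.3.3, with BH adjustment over all genes tested. OXTR was left out, since it chose the libraries. The SE of a log2 fold change was its size divided by the square root of F. DESeq2 1.42.0 and limma 3.58.1 (voom) were alternatives, and the code was tested on simulated data. Marker sums were compared by exact permutation. No pair of libraries was a repeat: the lowest mean chi-square per gene was 27.9 over 1225 pairs.

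Named genes were the 12 higher and the 12 lower of smallest BH P with a symbol, up to 4 called members of each list by size of change or, where none was called, the 2 of smallest P, and ESR1. The members and lists were chosen with earlier results of these data known. Lists with no identified member (interferon-stimulated genes, antigen presentation, immediate early genes and markers of ciliated cells, smooth muscle, T cells, B cells, macrophages, neutrophils and red cells) gave no value, and a few genes are not reported here.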

Additional observations from a re-analysis of the deposited data

Results flagged for a closer look

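A library lay far from the rest of its group, with a gap to its nearest neighbour above Dixon's 95% critical value, in 34 of the 201 groups checked (named genes in week 5 CycW5, week 9 CycW5 and week 9 NoCycW5 luteal-like libraries). Chance would flag about 1 in 20 groups of normally distributed values. That rate does not hold here, since CPM are skewed, every flagged library was the highest of its group, and the groups share libraries. Of the 34, 11 were library 89. Library 89, the highest of the week 9 CycW5 libraries each time, had ELF4 73.5 CPM, PDE3B 99.2 CPM, FN1 1747 CPM, MMP9 279.6 CPM, SLPI 201 CPM, CCL2 263 CPM, C7 47.5 CPM, PFKFB3 109 CPM, CYTB 4418 CPM, ND3 2046 CPM and FUT2 5.97 CPM. Library 75, the kept NoCycW5 library of highest OXTR at week 9, had SEC31A 253 CPM, GJB1 3.12 CPM, HSD17B10 58.0 CPM, MMP9 18.1 CPM, WFDC2 205 CPM, C5 31.5 CPM, AXIN2 38.8 CPM, FUT2 8.63 CPM and MUC1 137 CPM. The MMP9 value of library 89 compares with at most 4.85 CPM in the rest of its group, its SLPI value with at most 2.79 CPM and its CCL2 value with at most 14.7 CPM, while C5 in library 75 compares with at most 2.35 CPM. Among week 9 libraries, library 81 also stood out with OCIAD2 182 CPM and IDI1 220.5 CPM, library 74 with ELOVL7 3.81 CPM, library 101 with LPL 33.6 CPM, library 98 with DKK1 153 CPM, library 90 with CCL21 0.107 CPM and library 93 with CYTB 3409 CPM. At week 5 it was library 12 with CCL2 38.6 CPM and IDI1 157 CPM, library 52 with FN1 3277 CPM and SFRP2 213 CPM, library 54 with SLPI 26.5 CPM, library 59 with C7 46.1 CPM and library 70 with SLC5A1 72.2 CPM.

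The change between weeks differed between luteal-like libraries and the other CycW5 and NoCycW5 libraries for 26 of the 67 named genes (edgeR, BH P of 0.05 or less for the difference itself). Over all genes it differed in 2987 of 15744 (19%). The named genes were mostly chosen by their luteal-like change, which is part of this difference, so their count carries no test. The other libraries contribute too, and for some genes more: CAMK2B had medians of 0.341 CPM in acyclic week 5 and 4.18 CPM in other week 9 libraries. The luteal-like log2 fold changes of CAMK2B, GRIN1 and GJB1 were -2.46, -2.20 and -3.08, against the differences of -7.95, -5.45 and -6.88 listed here. The difference of log2 fold changes, luteal-like minus other, was negative for ADORA1 (-3.88), GRIN1 (-5.45), ELOVL7 (-3.09), BDH1 (-4.47), PLA2G3 (-6.59), SEC31A (-1.27), GJB1 (-6.88), DNAJB5 (-1.43), CORO2A (-2.18), HSD17B10 (-1.32), CAMK2B (-7.95), SLC5A1 (-2.46), ENPP3 (-3.58), ACSL4 (-3.08), HPGD (-2.61), WFDC2 (-2.10), CLDN10 (-2.40), CLDN1 (-2.25), SLC31A2 (-2.65), SLC25A29 (-1.21) and FUT2 (-4.63). It was positive for ZNF335 (0.37), MMP9 (5.25), MCM7 (0.46), SFRP2 (1.66) and CDH5 (0.86). SLC5A1 and HPGD rose in the luteal-like libraries (log2 fold change 1.57 and 0.73) and rose more in the others. SFRP2 fell in the luteal-like libraries (-0.71) and fell more in the others. The MMP9 value of library 89 is given above.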

How the results depend on the processing

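The count of 2034 called genes moved with how the libraries were chosen and weighted, and the cause was not tested. It was 5657 with library quality weights in limma-voom, 593 with CycW5 libraries alone at week 9, 1260 with OXTR under 30 CPM, 237 without an OXTR threshold, 206 with log2 OXTR as a covariate, 313 with OXTR of 5 CPM or more and 0 with the CycNoP4 libraries. The last 2 settings and column totals without trimmed mean scaling (2028) were chosen after seeing the data. List genes called (34 as reported) were 111, 13, 18, 5, 7, 6 and 0 under quality weights, CycW5 alone, OXTR under 30 CPM, no threshold, the covariate, OXTR of 5 CPM or more and CycNoP4. With DESeq2 the comparison of CycW5 and NoCycW5 at week 9 gave 17 genes in place of 0. DESeq2 (2826), limma-voom (2300), no filter (1970), at least 1 CPM in 8 libraries (2054), DESeq2 size factors (2040), OXTR under 90 CPM (1505), equal group weights (2022) and all libraries in the fit (1915) stayed within 1.5 times of 2034.

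With 1 library left out, the count was 1232 (without library 52) to 3794 (without library 89), the list genes called 22 (without library 52) to 75 (without library 89; 56 without library 70), the difference between changes 2464 to 3872 and the comparison of CycW5 and NoCycW5 0 throughout. The 24 genes of smallest P kept direction and call in all 576 such fits. They were chosen by their P in these same libraries, which favours that outcome, so it is no separate support. Named genes reversed for CCL2 (DESeq2 -0.20, quality weights -0.29, CycNoP4 -1.45, without library 89 -0.19), MMP9 (quality weights -0.24, CycNoP4 -0.30), SLPI (NoCycW5 alone -0.12, without library 89 -0.45), MCM7 (NoCycW5 alone -0.0345, CycNoP4 -0.0354), AXIN2 (CycNoP4 0.15) and ST6GAL2 (CycNoP4 0.40). With 1 library left out CCL2 ranged from -0.19 to 1.72 and SLPI from -0.45 to 5.05. Of 1138 other refits of named genes, 889 kept direction and side of the threshold, 210 lost and 29 gained the call. No paired analysis was made, because the labels do not link libraries to cows and no library number is shared between the groups. The order of the libraries in the deposited counts was not used to infer pairs. Depth was similar in all libraries, and transcripts under about 1 CPM, such as PTGFR and STC2, rest on few reads.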

Other observations

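Further groups of genes were singled out after their values were seen, so their counts carry no test, and 22.5% of the genes with a symbol were called. Of the connexins, the channel proteins of gap junctions, GJB5 was lower (-1.05 ± 0.35, BH P = 0.0469, edgeR) beside GJB1, while GJA4, a connexin of vessels, was not called (0.38 ± 0.21). GJB5 had 41.5, 33.2, 20.7, 20.6, 58.8, 58.3, 42.04, 92.7 and 23.9 CPM in week 5 libraries 12, 13, 45, 52, 54, 59, 66, 67 and 70, and 7.18 to 48.8 CPM (median 16.9) at week 9. Libraries 54, 59 and 67 lay above the week 9 range and the others within it. In acyclic week 5 libraries GJB5 had 0.0296 to 2.32 CPM (median 0.135). Of 7 tubulins 4 were lower, TUBA1A (-1.16 ± 0.20, BH P = 0.00118), TUBB3 (-2.26 ± 0.48, BH P = 0.00477), TUBB4A (-0.65 ± 0.22, BH P = 0.0496) and TUBB4B (-0.54 ± 0.15, BH P = 0.0215). TUBA1A was abundant in acyclic week 5 libraries, at 173.7 to 459 CPM (median 249), against 68.2 to 110.0 CPM (median 88.5) in luteal-like libraries of week 9.

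Of 7 interleukin receptor chains 6 were higher: IL6R (0.89 ± 0.30, BH P = 0.0471), IL13RA2 (1.36 ± 0.35, BH P = 0.0127), IL17RA (0.35 ± 0.09, BH P = 0.0115), IL17RC (0.52 ± 0.16, BH P = 0.0344), IL20RA (0.57 ± 0.17, BH P = 0.0276) and IL31RA (1.47 ± 0.48, BH P = 0.045) by edgeR. IL6R had 158, 291, 113, 68.8, 116, 64.4, 421, 136 and 371 CPM in week 5 libraries 12 to 70 and 136 to 580.3 CPM (median 347) at week 9, with libraries 12, 13, 66 and 70 inside the week 9 range. Among identifiers without a symbol, both that the study's tables describe as facilitated glucose transporter member 5, a fructose transporter, fell steeply: ENSBTAG00000007302 (GLUT5 (first identifier)) by 5.47 and ENSBTAG00000034323 (GLUT5 (second identifier)) by 5.28 on the log2 scale. The GLUT5 (second identifier) had 24.8, 5.65, 35.4, 39.3, 18.6, 35.9, 4.81, 27.9 and 0.200 CPM in week 5 libraries 12 to 70 and 0 to 3.68 CPM (median 0.143) at week 9, with only library 70 of week 5 inside the week 9 range. The 2 identifiers may be near-identical copies that share reads, so their separate values are uncertain. The identifiers with the smallest P of all genes, ENSBTAG00000035171 and ENSBTAG00000005268, which carry no name here, fell by 6.27 and 6.02 on the log2 scale (BH P = 1.05e-05 each, edgeR).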
